A study of Mus musculus with 9 samples.

Results

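The genes described here are 10 signaling genes of the noncanonical Wnt branch. They are the ligands Wnt5a, Wnt5b, Wnt11 and Wnt16, the receptors Ror1, Ror2, Ryk and Ptk7, and the polarity membrane proteins Vangl1 and Vangl2. They were taken by gene symbol from a count table of 54532 mouse genes, of which 30199 had at least 1 count in the 9 libraries. The table came from RNA-seq of the lambdoidal junction, the part of the embryonic face where the nasal and maxillary prominences come together and fuse into the upper lip and primary palate. All groups were C57BL/6J mouse embryos, with no treatment or engineered allele named, and they differed in stage only, which was E10.5, E11.5 or E12.5 in days of embryonic age. Each stage had 3 libraries, and each library was made from the pooled tissue of many embryos. The spread between libraries is therefore a spread between pools, and differences between single embryos cannot be seen. The question was how these genes changed while the prominences met and fused. E11.5 vs. E10.5 is called the first interval, E12.5 vs. E11.5 the second interval, and the comparison of E12.5 with E10.5 the whole span.

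Noncanonical Wnt ligands signal mainly without beta-catenin. Wnt5a is their best known member: it binds the receptor tyrosine kinases Ror1 and Ror2 and the catalytically inactive receptor Ryk, and it can act through a planar polarity branch or a calcium branch. In the planar polarity branch, Ptk7, an inactive receptor kinase, and the multi-pass membrane proteins Vangl1 and Vangl2 help neighbouring cells to align their shape, movement and division. Wnt5a and Ror2 are known for their part in the outgrowth of the face and limbs, and changes in the human genes cause Robinow syndrome, which affects the face.

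Wnt5a, Wnt11 and Wnt16 were upregulated over these stages. Wnt5a and Wnt11 were called between E10.5 and E11.5, and Wnt16 between E11.5 and E12.5. The first-interval call of Wnt11 was made in only 2 of the 6 fits that left out 1 library. A difference between the changes of the 2 intervals was not called for any of these genes in the main fit. Wnt5a, the ligand with the highest level per length of exon at every stage, was 3.30-fold higher at E11.5. Wnt16 stayed at a few counts per library until E11.5 and was 9.80-fold higher at E12.5. Wnt5b and the receptors Ror1 and Ror2 were not called at any step. The ratio of Vangl2 to Vangl1 was lower at each later stage, without overlap of the libraries. With 3 libraries per stage this could not pass the threshold (exact two-sided permutation test, p = 0.1 at each step, adjusted p = 0.3). Neither gene was called in the main fits.

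The 9 libraries held 16581009 to 20836804 counts each. All 8 markers of facial mesenchyme were detected at every stage, and their summed level was 1140 to 1920 CPM at E10.5, 2585 to 2756 CPM at E11.5 and 2630 to 2944 CPM at E12.5 (CPM: counts scaled to a common library size after TMM normalization). The 8 markers of forebrain and eye neuroepithelium were also present, with a summed level of 267.5 to 386.2 CPM at E10.5, 101.6 to 112.2 CPM at E11.5 and 101.4 to 120.9 CPM at E12.5. Libraries of E11.5 differed from each other with an SD of the log2 difference of 0.373 to 0.417. At E12.5 this SD was 0.494 to 0.591, and it was largest between replicates 2 and 3. E10.5 replicate 3 stood apart. The SD of the log2 difference between it and the other E10.5 libraries was 0.703 and 0.711, against 0.393 between those 2. The deviation of its genes from the stage mean had a Spearman correlation of -0.546 with GC content across genes, against 0.438 and 0.469 in E10.5 replicates 1 and 2. Its markers of facial mesenchyme summed to 1140 CPM, against 1917 and 1920 CPM in replicates 1 and 2, its markers of endothelium to 104.4 CPM, against 259.0 and 255.9 CPM, and its markers of surface epithelium to 832.4 CPM, against 469.5 and 533.5 CPM. Whether tissue composition, GC content or handling set this library apart was not tested, and results that rest on it are given below with and without it.

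The members lie on 9 chromosomes of GRCm38, and only Wnt5b and Wnt16 share one. The ligand genes are Wnt5a at chr14:28504750-28527448 on the plus strand, Wnt5b at chr6:119432531-119544347 on the minus strand, Wnt11 at chr7:98835112-98855195 on the plus strand and Wnt16 at chr6:22288227-22298522 on the plus strand. The receptor genes are Ror1 at chr4:100095791-100444765 on the plus strand, Ror2 at chr13:53109312-53286124 on the minus strand, Ryk at chr9:102834917-102908305 on the plus strand and Ptk7 at chr17:46564471-46629504 on the minus strand. Vangl1 is at chr3:102153583-102204693 and Vangl2 at chr1:172000960-172028444, both on the minus strand. Antisense genes share 4.58% of the exon sequence of Wnt5a and 0.112% of that of Vangl1, and a pseudogene on the opposite strand shares 8.80% of that of Wnt11. Whether reads were counted by strand is not given in the sources used here, so reads from these stretches cannot be assigned to one gene.

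Promoters were taken from RefSeq (GRCm38.p6), which lists 11 of them for 8 of the 10 members, each as 300 bases around a transcript start. Wnt5a and Vangl1 have no entry. The promoters of Wnt11 and Wnt16 are shown because these are the ligands that rose and have an entry. Capitals mark matches on either strand to the motifs searched. The letters of the TATA box were TATAAA. Those of the CCAAT box were CCAAT, and GGGCGG was searched as the GC box. The AP-1 motif had the letters TGANTCA, and that of TCF/LEF factors the letters CTTTGAT. No motif contains another, but matches can adjoin, as the GC box and TCF/LEF matches of the first Wnt11 promoter do. The first Wnt11 promoter (chr7:98834862-98835161, plus strand), the second (chr7:98838595-98838894, plus strand) and the Wnt16 promoter (chr6:22287977-22288276, plus strand) read 5′ to 3′:

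Wnt11 promoter 1: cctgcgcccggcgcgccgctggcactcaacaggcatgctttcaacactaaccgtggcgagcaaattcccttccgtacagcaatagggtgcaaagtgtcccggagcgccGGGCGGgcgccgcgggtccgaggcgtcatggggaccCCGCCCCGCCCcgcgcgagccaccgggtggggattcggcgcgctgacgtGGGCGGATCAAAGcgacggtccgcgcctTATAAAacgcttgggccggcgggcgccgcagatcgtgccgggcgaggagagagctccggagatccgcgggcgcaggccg

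Wnt11 promoter 2: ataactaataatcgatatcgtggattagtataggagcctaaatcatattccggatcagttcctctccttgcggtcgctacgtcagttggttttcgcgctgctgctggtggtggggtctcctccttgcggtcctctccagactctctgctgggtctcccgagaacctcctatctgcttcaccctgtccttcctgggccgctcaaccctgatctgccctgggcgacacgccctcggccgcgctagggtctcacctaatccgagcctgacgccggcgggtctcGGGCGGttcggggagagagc

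Wnt16 promoter: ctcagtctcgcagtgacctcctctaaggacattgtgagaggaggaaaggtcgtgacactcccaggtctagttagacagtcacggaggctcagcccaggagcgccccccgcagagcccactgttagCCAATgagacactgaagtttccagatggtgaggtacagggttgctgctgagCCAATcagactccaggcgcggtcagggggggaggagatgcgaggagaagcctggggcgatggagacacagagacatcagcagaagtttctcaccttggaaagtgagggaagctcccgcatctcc

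The first Wnt11 promoter held 4 GC box matches, 1 TATA box match and 1 TCF/LEF match, and the second held 1 GC box match. The Wnt16 promoter held 2 CCAAT box matches and none of the other motifs. Of the 32851 mouse promoters in the table, 13.62% held a TATA box match, 37.41% a CCAAT box match, 35.66% a GC box match, 7.81% an AP-1 match and 3.73% a TCF/LEF match. A match describes the letters only.

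Wnt5a showed the largest level among the ligands and rose in the first interval. Its levels in replicates 1, 2 and 3 were 130.3, 114.1 and 122.1 CPM at E10.5, 448.7, 330.5 and 425.9 CPM at E11.5, and 583.3, 619.4 and 441.2 CPM at E12.5. All E11.5 libraries lay above all E10.5 libraries, whereas E12.5 replicate 3 lay within the range of E11.5. In the first interval, Wnt5a was 3.30-fold higher (log2 fold change 1.72, SE 0.139), with an adjusted p of 0.00106 (edgeR's quasi-likelihood test, p-values adjusted over all genes tested by Benjamini-Hochberg). In the second interval the log2 fold change was 0.44 (SE 0.164, adjusted p 0.103), which was not called, and without E12.5 replicate 3 it was 0.57 and called (adjusted p 0.0229). Over the whole span it was 4.51-fold higher (log2 fold change 2.17, SE 0.194, adjusted p 2.46e-05). In bulk tissue, more cells of an expressing type and more RNA per cell cannot be told apart. The summed level of the facial mesenchyme markers moved in the same direction. In the first interval 4 of 8 markers were higher and 0 lower, beside 6.19% and 5.58% of all genes. Their median log2 fold change was 0.72, and their part in the rise of Wnt5a was not tested. The rise held without any one library: leaving out each library in turn gave log2 fold changes of 1.64 to 1.85 in the first interval and 2.08 to 2.30 over the whole span, called in 6 of 6 fits each.

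Wnt16, a ligand known from bone and joint formation, was near the lower end of detection until E12.5. Its raw counts were 6, 7 and 7 at E10.5, 10, 8 and 15 at E11.5, and 88, 109 and 102 at E12.5. As levels these were 0.357, 0.406 and 0.434 CPM, then 0.538, 0.385 and 0.790 CPM, then 4.96, 5.88 and 6.08 CPM. The E10.5 and E11.5 libraries overlapped, and all E12.5 libraries lay above both. In the second interval it was 9.80-fold higher (log2 fold change 3.29, SE 0.299, adjusted p 1.27e-04, edgeR), and over the whole span it was 14.0-fold higher (log2 fold change 3.81, SE 0.340, adjusted p 2.47e-05). In the first interval its counts were too low to be tested, and a fit of all genes with at least 1 count gave a log2 fold change of 0.52 (adjusted p 0.634). Leaving out each library in turn gave log2 fold changes of 3.05 to 3.58 for the second interval, called in 6 of 6 fits.

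Wnt11, a ligand of the noncanonical branch also known from kidney and heart formation, had levels of 4.81, 3.02 and 1.86 CPM at E10.5, 7.96, 6.44 and 8.38 CPM at E11.5, and 7.66, 7.44 and 9.06 CPM at E12.5. Every E11.5 and E12.5 library lay above every E10.5 library, and the E11.5 and E12.5 libraries overlapped. The log2 fold change was 1.23 (SE 0.324, adjusted p 0.0459, edgeR) in the first interval, 0.08 (SE 0.179, adjusted p 0.793) in the second interval and 1.32 (SE 0.331, adjusted p 0.0146) over the whole span. The call of the first interval was made in 2 of the 6 fits that left out 1 library, and lost without E10.5 replicate 2 (adjusted p 0.122) and without E11.5 replicate 1 (0.168), 2 (0.0965) or 3 (0.168). Without E10.5 replicate 3 the log2 fold change of the first interval was 0.96, below the fold threshold of a DEG. The call over the whole span was lost without E12.5 replicate 3 (log2 fold change 1.23, adjusted p 0.0628).

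Wnt5b, the close relative of Wnt5a, did not rise with it. Its levels were 26.1, 27.8 and 19.0 CPM at E10.5, 16.2, 23.1 and 22.9 CPM at E11.5, and 22.1, 18.3 and 22.4 CPM at E12.5. The ranges of the 3 stages overlapped. The log2 fold changes were -0.22 (SE 0.197, adjusted p 0.502, edgeR), 0.01 (SE 0.168, adjusted p 0.978) and -0.20 (SE 0.207, adjusted p 0.515) in the first interval, the second interval and the whole span. Without E10.5 replicate 3, Wnt5b was lower in the first interval (log2 fold change -0.37, adjusted p 0.0496).

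**Figure D1:**
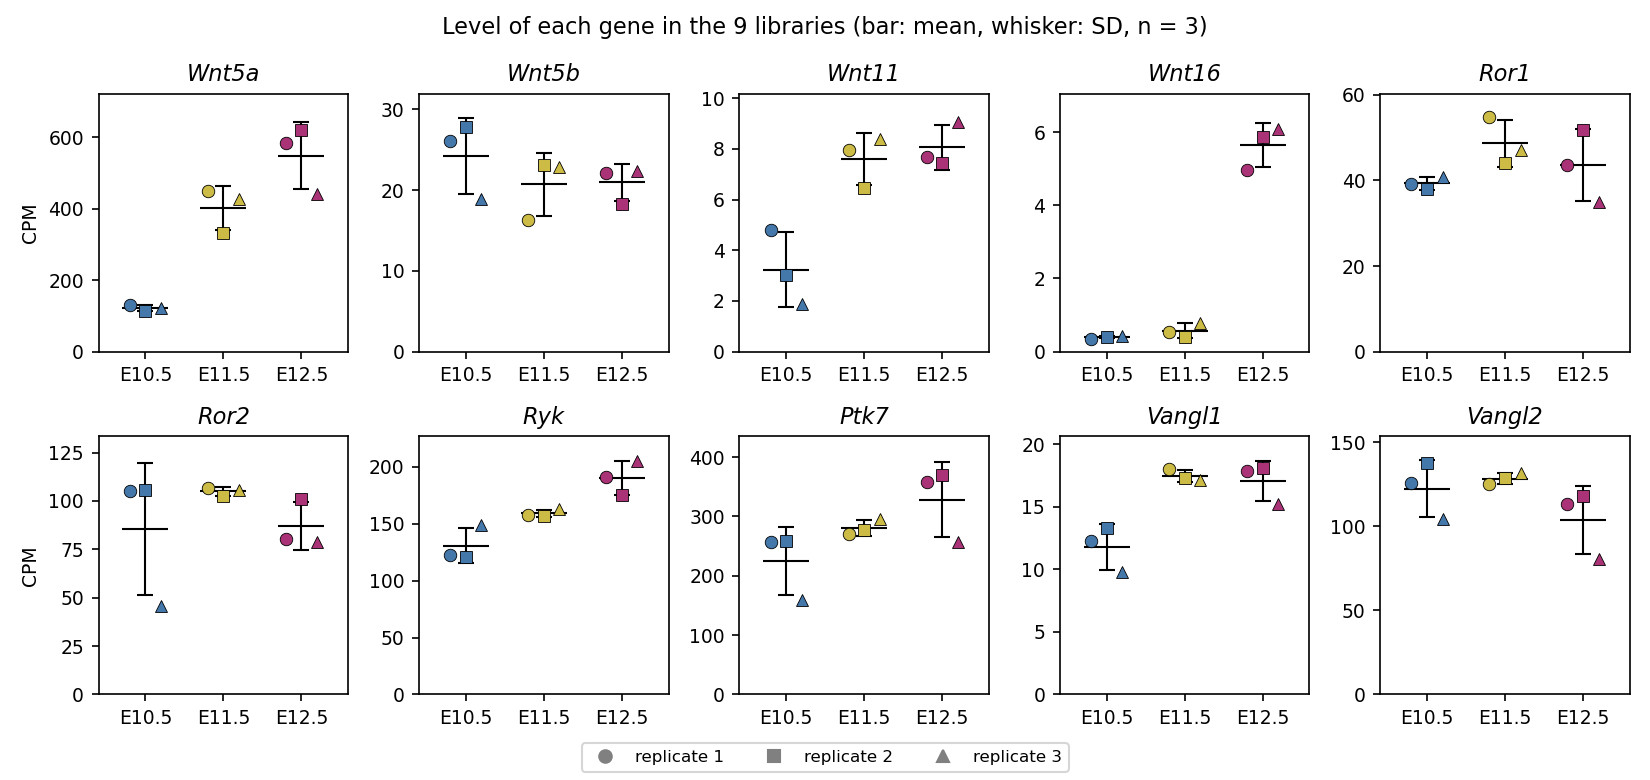
Level of each of the 10 genes in CPM (y axis, linear, from 0, its own scale per gene) at the 3 stages (x axis), with 1 point per library, a bar for the mean and a whisker for the SD of 3 libraries. Wnt5a stepped up at E11.5 (330.5 to 448.7 CPM against 114.1 to 130.3 CPM at E10.5), Wnt16 stepped up at E12.5, and E10.5 replicate 3 (blue triangle) was lowest at that stage for Ror2, Ptk7, Wnt5b and Wnt11.

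Wnt5a made up most of the ligand level at every stage, and its share was larger after E10.5. Per kb of exon, Wnt5a made up 60.1%, 56.3% and 67.0% of the summed level of the 4 ligands at E10.5, 87.5%, 80.3% and 83.4% at E11.5, and 86.8%, 88.7% and 82.4% at E12.5. The E10.5 share of Wnt5b was 35.5% ± 4.92 (SD, n = 3), that of E11.5 was 13.0% ± 3.60 and that of E12.5 was 9.93% ± 2.31. Wnt11 stayed at 1.93% to 4.20% of the ligand level in all 9 libraries, and Wnt16 at 0.168% to 2.04%. The per-length ratio of Wnt5a to Wnt5b was 1.70, 1.39 and 2.19 at E10.5, 9.37, 4.86 and 6.32 at E11.5, and 8.94, 11.5 and 6.68 at E12.5. These ratios did not overlap between E10.5 and the later stages (exact two-sided permutation test, p = 0.1, the smallest value that 3 against 3 libraries allow, adjusted p = 0.3 over 15 tests), and those of E11.5 and E12.5 overlapped (p = 0.3, adjusted p = 0.643). A ratio taken within a library does not depend on how libraries were scaled. Wnt5a (46.7% GC) and Wnt5b (59.98% GC) differ in GC content, however, and no ratio was computed with a GC trend removed. The ratio of Wnt5a to Wnt11 had geometric means of 21.5, 27.9 and 35.7 at the 3 stages, with overlap at each step.

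**Figure D2:**
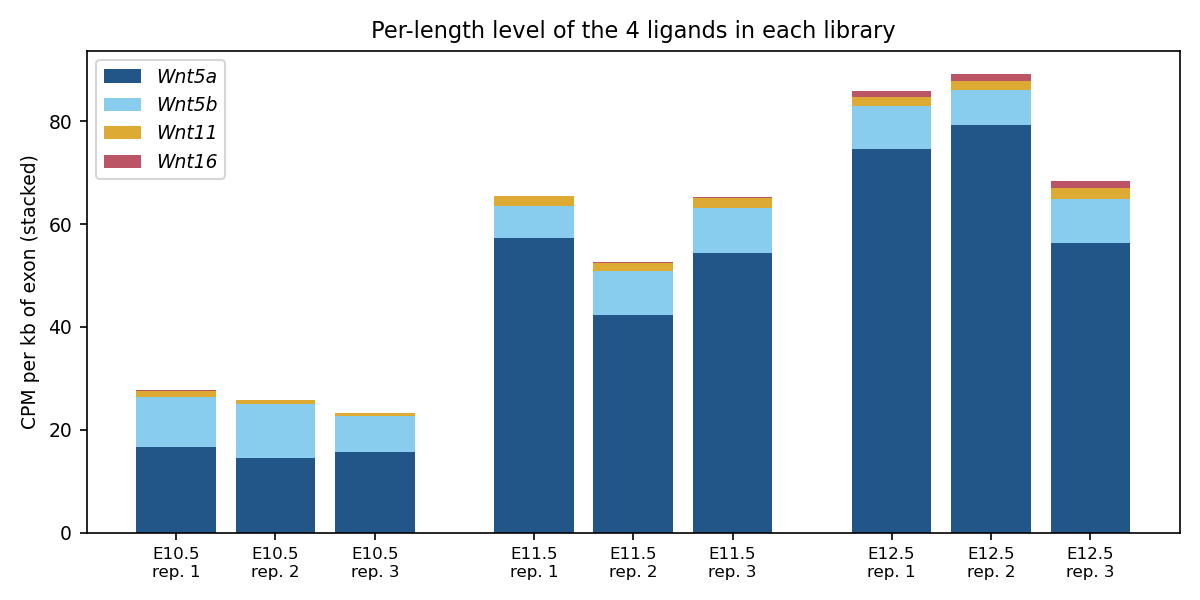
Stacked level of the 4 ligands in CPM per kb of exon (y axis, from 0) in each of the 9 libraries (x axis), with 1 color per gene. The Wnt5a part grew from 14.6 to 16.7 CPM per kb at E10.5 to 56.4 to 79.2 CPM per kb at E12.5, while the Wnt5b part stayed between 6.12 and 10.5 CPM per kb throughout.

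Ror2, the Wnt5a receptor with the best known part in face and limb outgrowth, had levels of 105.1, 105.5 and 45.9 CPM at E10.5, 106.9, 102.4 and 105.8 CPM at E11.5, and 80.5, 101.1 and 79.0 CPM at E12.5. The low value at E10.5 belonged to the library that stood apart. The log2 fold change was 0.30 (SE 0.277, adjusted p 0.525, edgeR) in the first interval with that library and 0.00 without it. The second interval gave -0.28 (SE 0.129, adjusted p 0.177), and without E12.5 replicate 2 it was -0.41 and called (adjusted p 0.0122).

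Ror1, the other receptor tyrosine kinase of this family, had levels of 39.2, 37.9 and 40.9 CPM at E10.5, 54.9, 44.2 and 47.1 CPM at E11.5, and 43.7, 51.9 and 35.1 CPM at E12.5. All E11.5 libraries lay above all E10.5 libraries, and the E12.5 libraries spread over both ranges. Its log2 fold change in the first interval was 0.31 (SE 0.118, adjusted p 0.131, edgeR), and 0.34 without E10.5 replicate 3 (adjusted p 0.0141). The second interval gave -0.17 (SE 0.159, adjusted p 0.511) and over the whole span 0.16 (SE 0.189, adjusted p 0.592).

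Ryk, the Wnt receptor with an inactive kinase domain, had higher levels at each later stage. Its levels were 122.9, 121.0 and 148.5 CPM at E10.5, 157.3, 156.9 and 162.7 CPM at E11.5, and 190.6, 175.3 and 205.3 CPM at E12.5, so no library of a later stage fell below one of an earlier stage. Over the whole span it was 1.46-fold higher (log2 fold change 0.55, SE 0.171, adjusted p 0.0381, edgeR), below the fold threshold of a DEG. That call was made in 2 of the 6 fits that left out 1 library and lost without E10.5 replicate 1 (adjusted p 0.164), E10.5 replicate 2 (0.173), E12.5 replicate 1 (0.121) or E12.5 replicate 3 (0.0975). The single steps were not called, with log2 fold changes of 0.28 (SE 0.112, adjusted p 0.144) and 0.25 (SE 0.115, adjusted p 0.166). The first was called without E10.5 replicate 3 (0.39, adjusted p 4.58e-04) and the second without E12.5 replicate 2 (0.31, adjusted p 0.0414).

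Ptk7 had the highest level of the receptors per length of exon. Its levels were 256.6, 258.4 and 159.5 CPM at E10.5, 269.5, 277.5 and 296.1 CPM at E11.5, and 358.3, 370.3 and 256.3 CPM at E12.5. All E11.5 libraries lay above all E10.5 libraries, and E12.5 replicate 3 fell below the range of E11.5. The log2 fold change was 0.33 (SE 0.181, adjusted p 0.284, edgeR) in the first interval, 0.22 (SE 0.1502, adjusted p 0.355) in the second interval and 0.56 (SE 0.230, adjusted p 0.104) over the whole span. The second step was called without E12.5 replicate 3 (0.36, adjusted p 0.0449), and without E10.5 replicate 3 the log2 fold change of the first step was 0.13.

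Which members were low in E10.5 replicate 3 went with the GC content of their longest transcript. Of the 6 members that were lowest in that library, Wnt5b (59.98% GC), Ptk7 (59.0%), Ror2 (58.9%), Wnt11 (56.5%) and Vangl2 (53.2%) had the highest GC content of the 10, and the sixth was Vangl1 (48.1%). The members highest in it were Ryk (47.8%), Ror1 (47.2%) and Wnt16 (40.4%), and Wnt5a (46.7%) lay between replicates 1 and 2. The part of GC content in these levels was not tested. The ratio of Ror2 to Ror1 per kb was 3.64, 3.78 and 1.53 in the E10.5 libraries and 2.503 to 3.15 in the 6 later ones, and the ratio of Ptk7 to Ryk was 1.76, 1.80 and 0.904 at E10.5 and 1.05 to 1.78 later. The stage means of both ratios differed by -0.11 to 0.09 on the log2 scale (exact two-sided permutation test, p of 0.5 to 1.0 over 6 tests). These small differences rest on E10.5 replicate 3. In the other E10.5 libraries the ratio of Ror2 to Ror1 lay above that of all 6 later libraries. Their ratio of Ptk7 to Ryk lay above the E11.5 libraries (1.44 to 1.53) and overlapped with E12.5. The ratios were not tested without that library.

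Vangl1 and Vangl2 form complexes at cell borders in planar polarity, and neither was called in any of the 3 comparisons in the main fits. The levels of Vangl1 were 12.3, 13.3 and 9.79 CPM at E10.5, 18.02, 17.3 and 17.1 CPM at E11.5, and 17.9, 18.1 and 15.2 CPM at E12.5. All later libraries lay above all E10.5 libraries. Its log2 fold change in the first interval was 0.57 (SE 0.154), with an adjusted p of 0.0501 (edgeR), just outside the threshold. It was called there without E10.5 replicate 3 (0.45, adjusted p 0.00838), by DESeq2 (0.57, adjusted p 0.0108) and in the edgeR fit on all 9 libraries (0.57, adjusted p 0.0455). That fit also called it over the whole span (0.53, adjusted p 0.0274). In the main fits the second interval gave -0.04 (SE 0.136, adjusted p 0.868) and the whole span 0.54 (SE 0.209, adjusted p 0.0838).

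Vangl2 had levels of 125.6, 137.5 and 104.5 CPM at E10.5, 125.2, 128.6 and 131.7 CPM at E11.5, and 113.3, 118.0 and 80.6 CPM at E12.5. The E12.5 libraries all lay below the E11.5 libraries, and both overlapped or touched the wide range of E10.5. The log2 fold change was 0.07 (SE 0.118, adjusted p 0.740, edgeR), -0.31 (SE 0.148, adjusted p 0.188) and -0.23 (SE 0.197, adjusted p 0.436) in the first interval, the second interval and the whole span. Without E12.5 replicate 2 the second step was -0.42 and called (adjusted p 0.0410).

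The per-length ratio of Vangl2 to Vangl1 within each library was 10.5, 10.6 and 10.9 at E10.5, 7.11, 7.60 and 7.88 at E11.5, and 6.49, 6.67 and 5.43 at E12.5. The stages did not overlap at either step, and E10.5 replicate 3 lay with the other E10.5 libraries. The log2 ratio fell by 0.50 in the first interval and by 0.29 in the second (exact two-sided permutation test, p = 0.1 for each, the smallest value possible, adjusted p = 0.3 over 15 tests). This design cannot take such a test below 0.05.

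**Figure D3:**
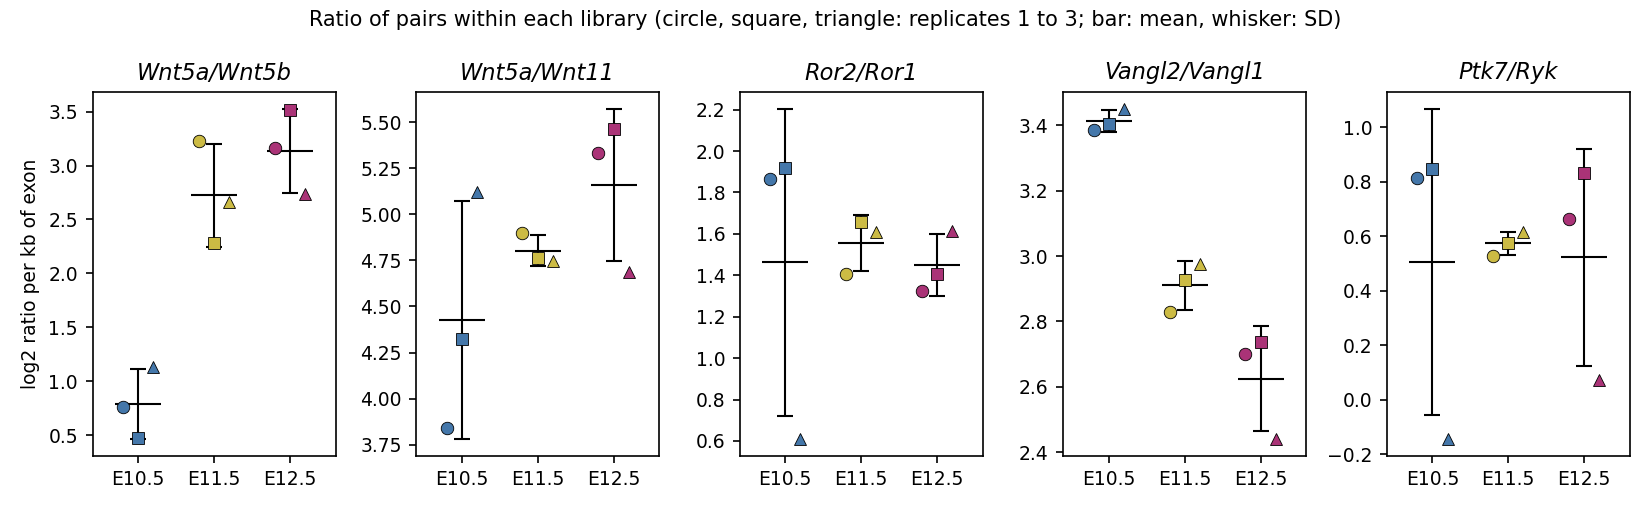
Log2 ratio of 2 genes per kb of exon within each library (y axis, its own range per panel) at the 3 stages (x axis), with 1 point per library, a bar for the mean and a whisker for the SD of 3 libraries. Wnt5a/Wnt5b stepped up after E10.5, and Vangl2/Vangl1 was lower at each later stage without overlap. Ror2/Ror1 and Ptk7/Ryk had similar means over all libraries, with E10.5 replicate 3 (blue triangle) far below its stage.

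Compared per length of exon, the order of the 10 genes changed at the top. At E10.5 it was Ptk7 (41.8 ± 10.5 CPM per kb, SD, n = 3), Ryk (28.8 ± 3.39), Ror2 (20.1 ± 8.08), Vangl2 (17.5 ± 2.39), Wnt5a (15.6 ± 1.04), Wnt5b (9.15 ± 1.77), Ror1 (6.82 ± 0.259), Vangl1 (1.65 ± 0.253), Wnt11 (0.781 ± 0.360) and Wnt16 (0.0915 ± 0.00896). At that stage the libraries of Ptk7 and Ryk overlapped, as did those of Ror2 and Vangl2 and those of Vangl2 and Wnt5a. At E11.5 Wnt5a (51.4 ± 8.02 CPM per kb) overlapped with Ptk7 (52.2 ± 2.54), above Ryk (35.1 ± 0.717). At E12.5 Wnt5a (70.04 ± 12.04 CPM per kb) and Ptk7 (61.0 ± 11.6) again overlapped and lay above the other 8 members in every library. The 3 lowest members were Vangl1, Wnt11 and Wnt16 at each stage, and at E12.5 Vangl1 (2.38 ± 0.225 CPM per kb) and Wnt11 (1.95 ± 0.213) overlapped.

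Counted together, 2 of the 9 members tested were upregulated in the first interval (Wnt5a and Wnt11, both DEGs, that is, called at the 0.05 level and with a log2 fold change of 1 or more in size) and 0 were downregulated. Of all genes tested in that comparison, 6.19% were higher, 5.58% were lower and 6.07% were DEGs. In the second interval, 1 of 10 members was upregulated (Wnt16, a DEG) and 0 were downregulated, against 7.61% of all genes higher, 4.57% lower and 5.10% DEGs. Over the whole span, 4 of 10 were higher (Wnt5a, Wnt16, Wnt11 and Ryk, of which the ligands were DEGs) and 0 were lower, against 14.0% of all genes higher, 10.5% lower and 15.0% DEGs. In each comparison 0 members were lower at an unadjusted p under 0.05 in edgeR, and DESeq2 called 0 lower. DESeq2 also called Vangl1 higher in the first interval (adjusted p 0.0108). The median log2 fold change of the members was 0.31, 0.04 and 0.55 in the 3 comparisons, beside -0.03, 0.02 and -0.01 over all genes tested. The first count depended on E10.5 replicate 3: without it, 5 members were higher (Wnt5a, Wnt11, Ror1, Ryk and Vangl1) and 1 was lower (Wnt5b), while the share of all genes called higher rose to 19.6% and that called lower to 20.0%. The second count depended on E12.5 replicates 2 and 3. Without replicate 2, 2 members were higher (Wnt16 and Ryk) and 2 were lower (Ror2 and Vangl2). Of all genes, 15.2% were then higher and 15.5% lower. Without replicate 3, Wnt5a (adjusted p 0.0229, edgeR) and Ptk7 (adjusted p 0.0449) were called higher beside Wnt16, a fit in which the share of all genes was not counted. After a GC trend had been removed from every library, 5 members were higher in the first interval (Wnt5a, Wnt11, Ryk, Ptk7 and Vangl1), against 11.3% of all genes.

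**Figure D4:**
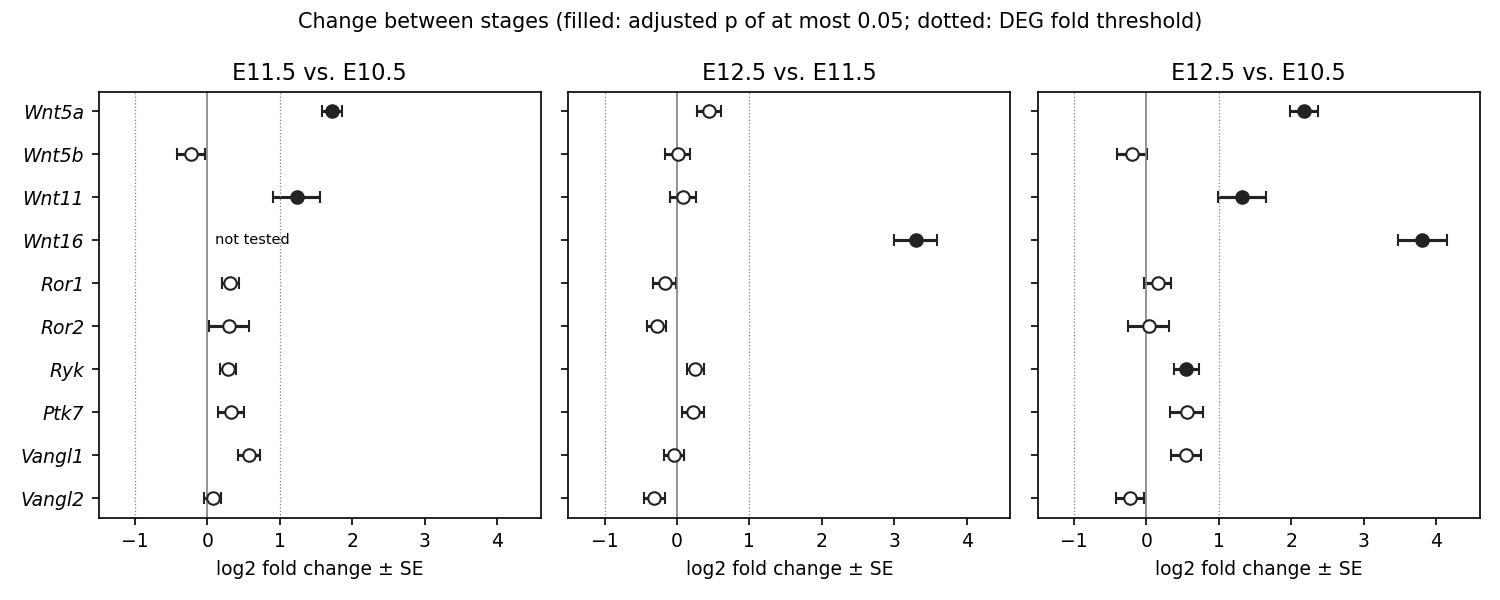
Log2 fold change of each member with its SE (x axis) in the 3 comparisons (panels), from edgeR. Filled points have an adjusted p up to 0.05 and the dotted lines mark the fold threshold of a DEG: Wnt5a and Wnt11 were called in the first interval, Wnt16 in the second, and Wnt5a, Wnt11, Wnt16 and Ryk over the whole span.

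Wnt5a and Wnt16 rose in different intervals, and their time courses were compared by testing whether the change in the second interval differed from that in the first, on all 9 libraries. The difference of the log2 fold changes was -1.27 (SE 0.280) for Wnt5a and 2.79 (SE 0.633) for Wnt16. With adjusted p-values of 0.0508 and 0.0560 (edgeR), neither passed the threshold, and 1.18% of all genes did. In total 0 members passed, 3 had an unadjusted p under 0.05 (Wnt5a, Wnt16 and Wnt11), and DESeq2 called 2 (Wnt5a, adjusted p 0.00294, and Wnt16, adjusted p 0.0169). Both intervals share the E11.5 libraries.

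The core of planar polarity, 16 genes in which cadherins of the Celsr family, Frizzled, Dishevelled and Prickle proteins set the axis of a cell, held genes called in both directions. Of the 15 genes tested, 2 were higher and 2 lower in the first interval (6.19% and 5.58% of all genes), none were called in either direction in the second interval (7.61% and 4.57%), and 1 was higher and 3 lower over the whole span (14.0% and 10.5%). Without E12.5 replicate 2, 5 were lower in the second interval (Celsr1, Fzd3, Prickle2, Sec24b and Invs; 15.5% of all genes). Without E11.5 replicate 1, 0 were higher and 1 lower in the first interval, and without E12.5 replicate 1, 1 was lower over the whole span. At an unadjusted p under 0.05, edgeR had 2 of these genes higher and 3 lower in the second interval. The median log2 fold change was -0.0019, -0.145 and -0.155 in these comparisons. Celsr2, one of the large polarity cadherins, had levels of 73.6, 59.6 and 65.6 CPM at E10.5, 25.8, 25.3 and 25.3 CPM at E11.5 and 27.7, 28.9 and 14.1 CPM at E12.5. It fell by 1.38 on the log2 scale in the first interval (SE 0.115, adjusted p 0.00117, edgeR) and by 1.48 over the whole span (SE 0.258, adjusted p 0.00208), and was called in all fits that left out 1 library. Celsr3, another of these cadherins, fell by 1.11 and 1.09 on the log2 scale in the same comparisons, a call lost without E11.5 replicate 1 (adjusted p 0.0522) and without E12.5 replicate 1 (0.0564), respectively. The other lower gene over the whole span was Fzd3, a Frizzled receptor (-0.83, SE 0.244, adjusted p 0.0295), a call lost without E10.5 replicate 3 and without E12.5 replicate 1 or 3. Prickle2 was higher in the first interval (0.89, SE 0.149, adjusted p 0.00933), a call lost without E11.5 replicate 1. Prickle1, a cytoplasmic partner of Vangl proteins, rose from 25.6 to 47.8 CPM at E10.5 to 83.5 to 102.5 CPM at E12.5 with a log2 fold change of 1.26 (SE 0.236, adjusted p 0.00310). It was also called in the first interval (1.03, SE 0.222, adjusted p 0.0225), a call lost when any one E11.5 library was left out. The forebrain and eye markers moved together with Celsr2 and Celsr3: 8 of 8 were lower in the first interval and over the whole span. The shares of all genes called lower were 5.58% and 10.5%. The part of these markers in the fall of Celsr2 and Celsr3 was not tested. Without E10.5 replicate 3, 3 genes of the core were higher and 5 lower in the first interval, when 19.6% and 20.0% of all genes were called higher and lower.

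Among 6 partners of Wnt5a and the Ror receptors, 1 rose and 1 fell in the first interval (6.19% and 5.58% of all genes). The same counts held over the whole span (14.0% and 10.5% of all genes). Without E10.5 replicate 3, 4 were lower in the first interval (Fzd5, Gpc4, Kif26a and Fzd7, beside 20.0% of all genes). Over the whole span 2 were lower without it (Fzd5 and Fzd7), a fit in which the share of all genes was not counted. Without E12.5 replicate 2, 2 were lower in the second interval (15.5% of all genes), in which none were called lower with all libraries (4.57%). At an unadjusted p under 0.05 in edgeR, 2 were lower in that interval with all libraries. Kif26b, a kinesin-family protein degraded on Wnt5a and Ror signaling, had levels of 117.5, 102.8 and 55.1 CPM at E10.5, 378.9, 273.5 and 342.6 CPM at E11.5 and 364.2, 490.6 and 304.3 CPM at E12.5. The E10.5 libraries all lay below the others. Its log2 fold change was 1.86 (SE 0.268, adjusted p 0.00536, edgeR) in the first interval and 2.08 (SE 0.287, adjusted p 4.66e-04) over the whole span, called in all fits that left out 1 library. Fzd5, a Frizzled receptor of the eye field that can bind Wnt5a, had levels of 29.8, 19.3 and 34.4 CPM at E10.5, 4.74, 5.14 and 4.58 CPM at E11.5 and 3.21, 3.83 and 2.09 CPM at E12.5. It fell by 2.52 (SE 0.231, adjusted p 0.00130) and 3.18 (SE 0.303, adjusted p 3.83e-05) on the log2 scale, in the same comparisons as the forebrain and eye markers. In the second interval, 1 partner was higher, beside 7.61% of all genes. It was Gpc4, a cell surface proteoglycan (log2 fold change 0.52, SE 0.143, adjusted p 0.0387, edgeR). That call was lost without any one of the E11.5 libraries and without E12.5 replicate 1.

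Of the 14 planar polarity effectors, which carry the signal to cilia, the cytoskeleton and Jun kinase, 1 was higher in the first interval and none were lower (1 at an unadjusted p under 0.05 in edgeR). The higher gene was Daam2, a formin that links Dishevelled to actin, with 60.8, 53.5 and 19.4 CPM at E10.5 and 148.8, 122.1 and 144.6 CPM at E11.5 (log2 fold change 1.64, SE 0.358, adjusted p 0.0242, edgeR), a call lost without E10.5 replicate 2 and without any one of the E11.5 libraries. Over the whole span it was at 1.58 (SE 0.359, adjusted p 0.00895). The ciliary effector Intu fell by 0.56 in the second interval and by 0.86 on the log2 scale over the whole span (adjusted p 0.0312 and 0.0115). Fuz, another ciliary effector, was higher (0.73) and the transcription factor Jun lower (-0.49) in the second interval, with adjusted p-values of 0.0436 and 0.0331, and the calls of Intu, Fuz and Jun in this interval were lost without any one of the E11.5 libraries and without E12.5 replicate 1, those of Intu and Fuz also without E12.5 replicate 3. Without E10.5 replicate 3, 6 effectors were higher and 2 lower in the first interval, beside 19.6% and 20.0% of all genes, against 1 and 0 beside 6.19% and 5.58% with it. Without E12.5 replicate 2, 4 effectors were lower in the second interval (15.5% of all genes), against 2 with it (4.57%). The 4 genes of the Fat and Dachsous branch, a second system of polarity cadherins, held 1 called gene among 3 tested. Of all genes, 6.19% were higher in the first interval and 14.0% over the whole span. Fat4 was higher in the first interval (log2 fold change 1.26, SE 0.338, adjusted p 0.0498) and over the whole span (1.52, SE 0.373, adjusted p 0.0132), the first call lost as that of Daam2 was and the second without E12.5 replicate 1 or 2.

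In the calcium branch, calcium release activates kinases and NFAT factors. Of its 13 genes, all tested, 4 were higher in the first interval, 4 in the second interval and 6 over the whole span, and none were lower in these fits. Without E12.5 replicate 2, 4 were higher and 2 lower in the second interval (Plcb1 and Nfatc3), beside 15.2% and 15.5% of all genes. At an unadjusted p under 0.05, 1 was lower in the first interval and 0 in the others (edgeR). The shares of all genes called higher in the same comparisons were 6.19%, 7.61% and 14.0%. Nfatc2, Nfatc1, Prkca and Plcb1, a phospholipase, were called in the first interval, and Camk2a, a calcium-dependent kinase (log2 fold change 1.16, SE 0.318, adjusted p 0.0376), joined Nfatc2, Nfatc1 and Prkca in the second. The second calls of Camk2a, Nfatc1 and Prkca were lost without any one of the E11.5 libraries and without E12.5 replicate 1. The genes called over the whole span were Nfatc2, Nfatc1, Prkca, Nfatc4, Plcb1 and Camk2d. Of these calls, that of Plcb1 was lost without replicate 1 or 2 of E10.5 or of E12.5. That of Nfatc4 was lost without E12.5 replicate 1, and that of Camk2d without E10.5 replicate 2. Nfatc2, a transcription factor activated by calcineurin, had levels of 1.60, 2.03 and 1.61 CPM at E10.5, 8.39, 3.17 and 6.32 CPM at E11.5 and 21.4, 22.3 and 16.3 CPM at E12.5. Its libraries did not overlap between stages, and its log2 fold change was 3.52 over the whole span (SE 0.257, adjusted p 6.97e-06, edgeR) and 1.75 in the second interval (SE 0.284, adjusted p 0.00306). Nfatc1, a member of the same family, rose from 4.27 to 6.95 CPM at E10.5 to 19.8 to 29.1 CPM at E12.5, with a log2 fold change of 2.16 (SE 0.254, adjusted p 1.55e-04). Prkca, a calcium-dependent kinase, rose from 8.30 to 9.29 CPM at E10.5 to 19.9 to 25.8 CPM at E12.5, with the E11.5 libraries in between and without overlap between stages (log2 fold change 1.37 over the whole span, SE 0.202, adjusted p 7.17e-04). These 3 genes were called over the whole span in each fit that left out 1 library. The count of the first interval ranged from 0 to 5 and that of the second from 1 to 4 over such fits, and no gene was called in the first without E11.5 replicate 1.

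**Figure D5:**
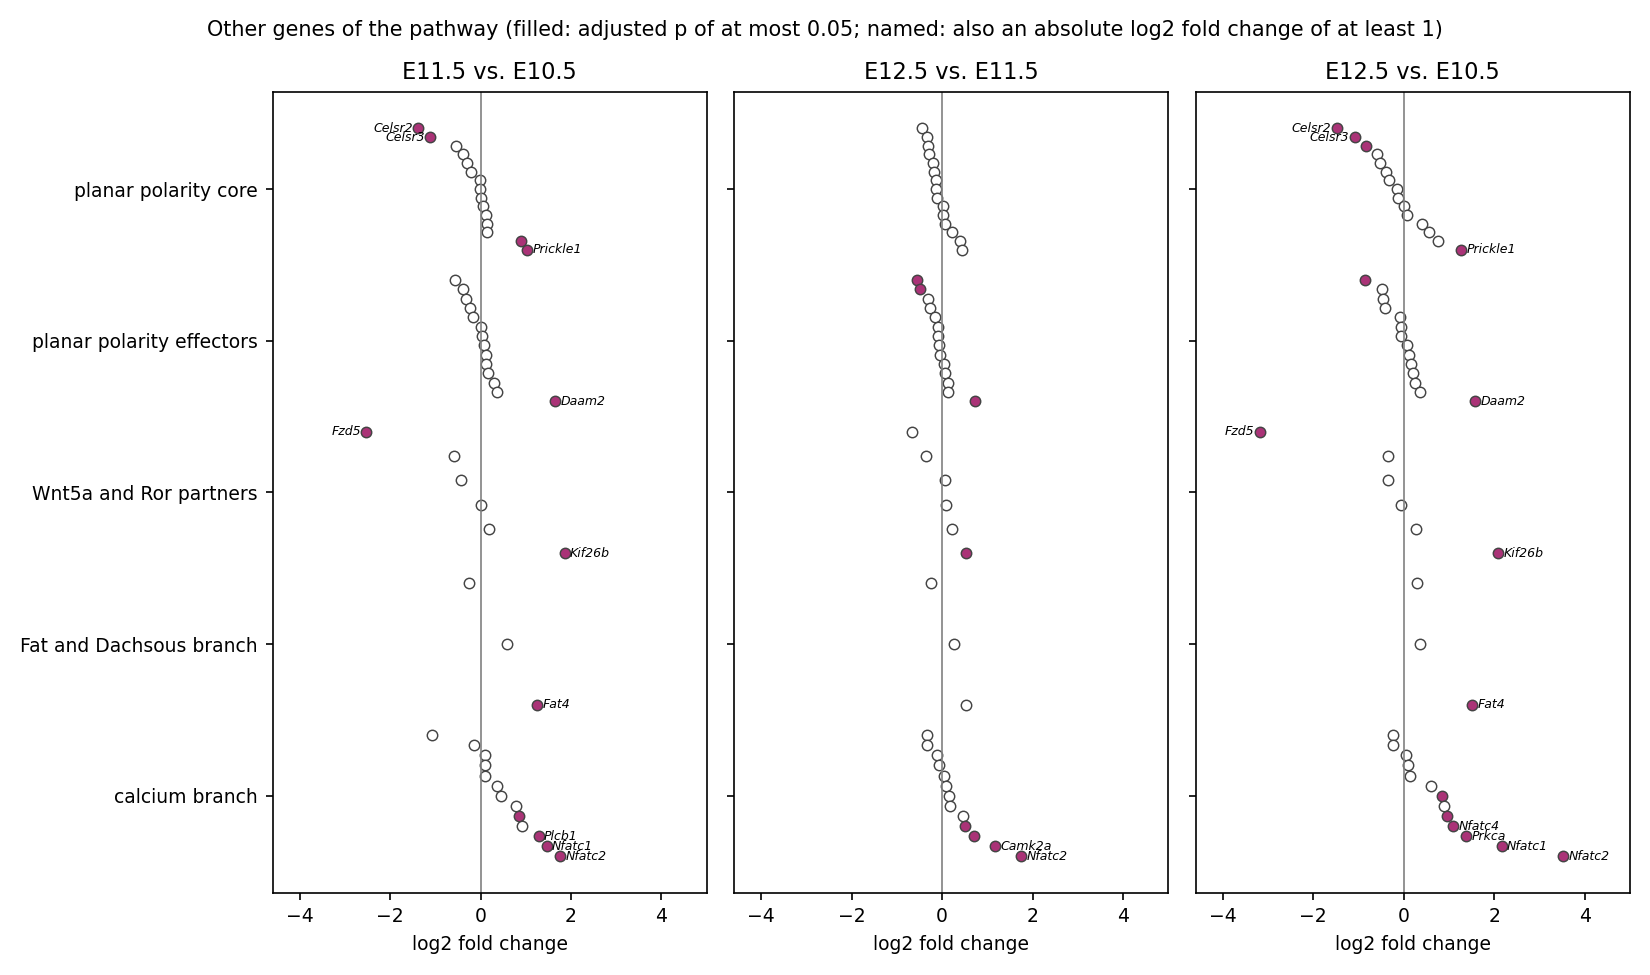
Log2 fold change (x axis) of the other genes of the pathway in 5 lists (y axis) and 3 comparisons (panels), with 1 point per gene. Filled points were called by edgeR (adjusted p up to 0.05) and names mark called genes past the fold threshold of a DEG. The core held called genes on both sides of 0 in both comparisons with E10.5, and the called genes of the calcium branch lay to the right of 0 in these fits of all libraries.

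The genes whose log2 CPM followed that of Wnt5a most closely over the 9 libraries were P4ha3 (Pearson's r 0.997), Wwtr1, Apcdd1 and Pcdh10 (0.995 each) and Antxr1 (0.994), out of 10104 genes with a mean of at least 10 CPM. For Vangl2 they were Zfp217 and Sorcs2 (0.985 each), Phc1 (0.983), and Cand2 and Bcr (0.980 each). The 9 libraries share 3 stages and differ in depth, so these values describe likeness only. Among the members, Wnt5a was closest to Vangl1 (r 0.884) and Wnt11 (0.873), Ptk7 to Vangl1 (0.865), and Ryk to Wnt5a (0.842), while Wnt5b ran against Ror1 (-0.718).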

How the data were processed

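RNA-seq libraries of lambdoidal junction tissue (3 stages, 3 libraries each) were analysed from 1 deposited table. The authors mapped reads to GRCm38/mm10 with HISAT2 (version 2.0.5, also in the submitters' processing notes) and counted them with featureCounts. The deposited counts are whole numbers of reads per gene from the authors' counting and are not normalized. The deposited FPKM values are counts scaled by gene length and depth by the authors, used here only as an alternative for ratios. The table also holds stage means (normalized signal) and log2 fold changes, p-values and adjusted p-values from the authors' DESeq2 comparisons, which were not used. It held 0 columns of other samples. Strand use and the treatment of reads with several positions are not given in the sources used here.

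Depth was 16581009 to 20836804 counts per library. PCR reads without molecular identifiers are not independent molecules, so low counts such as those of Wnt16 carry at least counting error. Stages were taken from the labels. The 6 libraries of a pair of stages made up each fit, run in R 4.3.3 with edgeR 4.0.16 (filterByExpr, TMM, quasi-likelihood test, Benjamini-Hochberg adjustment over all genes tested), with calls at an adjusted p up to 0.05 and, for DEGs, a log2 fold change of 1 or more in size. A contrast of the 2 intervals used all 9 libraries. Levels were taken as CPM after TMM scaling and divided by exon length in kb where genes are compared. Ratios were tested by exact permutation (scipy 1.17.1). The scripts were tested on simulated data. Likeness is Pearson's r of log2 CPM (prior count 2).

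Coordinates and lengths are those of the table, and GC content (of the longest transcript of each gene) and exon overlaps come from GENCODE vM21 (GRCm38). The genes named are the 10 members, the members of 5 hand-written pathway lists past the adjusted p threshold, and the 5 genes most like Wnt5a and Vangl2. The members and lists were chosen with earlier results of these data known. Alternatives were DESeq2 1.42.0, its size factors, upper quartile normalization, 2 other filters, 1 fit on all libraries, the replicate block, GC trend removal (lowess, span 0.3), hemoglobin genes left out, an adjusted p of at most 0.01 and each library left out in turn. For the pathway lists, GC trend removal and leaving out libraries were added after seeing the data.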

Additional observations from a re-analysis of the deposited data

How the results depend on the processing

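Of 685 values of a member's log2 fold change under alternatives, 610 kept their direction and side of the threshold, 13 lost a call, 34 gained one, 28 changed sign without being called in either fit (-0.26 to 0.05), and none reversed a call. No ratio between members moved beyond its spread under the deposited FPKM. Leaving out 1 of 3 libraries cannot move a mean beyond the spread of all libraries, so that check could not show a dependence of the ratios on 1 library. In E11.5 vs. E10.5, 1 member was higher and 1 was a DEG at an adjusted p of at most 0.01 or with at least 10 counts in every library, 5 were higher with the GC trend removed and 4 with the GC trend removed in the fit with the replicate block. Leaving out each library gave 1 to 5 higher, 0 to 1 lower and 1 to 2 DEGs. In E12.5 vs. E11.5, 2 members were higher among all genes with at least 1 count, and 0 were higher and 0 DEGs with at least 10 counts in every library. That filter removes Wnt16. Leaving out each library gave 1 to 3 higher and 0 to 2 lower. In E12.5 vs. E10.5, 2 were higher at an adjusted p of at most 0.01, and leaving out each library gave 2 to 4. The difference between the 2 intervals was called for 1 member with DESeq2's size factors, upper quartile normalization or the GC trend removed with the replicate block, for 2 with DESeq2, all genes with at least 1 count or the GC trend removed, and for 0 to 1 without 1 library. Where no filter or threshold is named, the cause was not tested. Except where given above, the share of all genes called in these fits was not counted. The counts of called pathway genes moved by over 1.5 times in 9 of 30 cases with the GC trend removed and in 8 of 20 without E10.5 replicate 3.

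Replicate numbers were not used to pair the samples in the main fits. Same-numbered libraries had correlations of -0.151 to 0.221 between their deviations from the stage means. Libraries with different numbers were not compared in this way, so whether the numbers mark pairs was not tested. With the replicate block, 2, 1 and 5 members were higher in the first interval, the second interval and over the whole span. The shares of all genes called with the block were not counted, so these counts cannot be set against them. The call added over the whole span was Ptk7 (log2 fold change 0.57, adjusted p 0.0195, edgeR). With 3 pools per stage, raw counts of 6 to 15 for Wnt16 at E10.5 and E11.5 limit how small a change in the first interval could be seen.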
